A study of Mus musculus with 2 samples.

Results

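Genes that encode secreted or membrane-bound effector proteins of lymphocytes were read here as raw molecule counts, 6 in all: Ifng, Tnf, Csf2, Il2, Fasl and Xcl1. They were listed by symbol, chosen with earlier results of these data known, and all 6 of 6 were found among the 31053 genes of the tables. The cells came from subcutaneous syngeneic fibrosarcomas implanted in C57BL/6 mice, and the study asked what an injection of autologous erythrocytes in saline does to the cells of such tumours. There were 2 libraries, both from tumours of wild-type C57BL/6 animals, 1 titled Control and 1 titled Blood. The treatment labels run against the titles: the library titled Control is labelled as erythrocyte injected, and the library titled Blood as PBS injected. Libraries are therefore called by title, and no direction below is read as an effect of erythrocytes. Neither the animals' age, nor their number per library, nor any cell sort is stated (not given in the sources used here). With 1 library per group there is no replicate check and no test of the conditions. All intervals are exact 95% intervals that cover counting error only, and all comparisons are between these libraries.

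Cytotoxic CD8 T cells and natural killer (NK) cells act on tumour cells by secreted cytokines and by death receptors. Ifng encodes interferon gamma, which activates macrophages and raises antigen presentation. Tnf encodes tumour necrosis factor, an inflammatory cytokine made by lymphocytes and by myeloid cells. Csf2 encodes GM-CSF, a growth and activation factor for myeloid cells, and Il2 encodes interleukin 2, the T cell growth factor. Fasl encodes the ligand of the death receptor Fas, and Xcl1 encodes the chemokine that attracts cross-presenting dendritic cells through XCR1. In resting T cells most of these genes are silent, and antigen receptor signalling through NFAT, AP-1 and NF-kappaB switches them on in bursts.

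The libraries held 9475 (titled Control) and 12057 (titled Blood) barcodes with 115272096 and 115066023 unique molecular identifiers (UMIs), and 8823 and 11341 cells were kept, at medians of 9245 and 6577 UMIs. A total of 349 barcodes were listed in both libraries. They were concentrated outside the lymphocytes: 84 of 102 and 47 of 54 mesenchymal-like cells had such a barcode, against 12 of the 2550 gated lymphocytes. Leaving those cells out changed none of the counts of members reported here. Doublet calling marked 1.80% and 2.38% of cells where 7.58% and 9.65% were expected from loading, so unmarked doublets remain possible. Neutrophil-like cells made up 1.46% of kept cells in the library titled Control and 15.6% in that titled Blood.

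Lymphocytes were gated by marker UMIs within lymphoid clusters, which were made without the 6 genes. CD8-gated cells had CD3 and Cd8a or Cd8b1 but no Cd4 or Foxp3, and there were 436 in the library titled Control and 743 in that titled Blood. CD4-gated cells had CD3 and Cd4 but no CD8 or Foxp3, and there were 168 and 222. Regulatory T (Treg-gated) cells had CD3 and Foxp3 but no CD8, and there were 165 and 193. NK-gated cells had Ncr1 or Klrb1c but no CD3, Cd4, Cd8b1 or Foxp3, and there were 310 and 313. Cells that entered a gate on a single UMI of its marker numbered 34 and 32 (CD8), 48 and 48 (CD4), 27 and 34 (Treg) and 40 and 48 (NK). Another 473 and 423 cells of the lymphoid clusters met no gate, 399 and 334 of them with CD3 but without Cd4, CD8 or Foxp3. Cd3e was detected in 85.1% to 93.7% of the 3 T cell gates and in no NK-gated cell by construction. Ncr1 was detected in 76.1% and 69.6% of NK-gated cells and in at most 1.21% of the T cell gates. Trdc, from the gamma delta T cell marker list, was detected in 29.4% and 23.0% of NK-gated cells. In the T cell gates it was detected in at most 2.25% of cells.

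Levels are given as CPM, the share of a gene among all UMIs of the same gated cells, scaled to 1e+06 UMIs. The chemistry counts 1 end of each transcript, so no division by length was made. A difference between the libraries was counted when the ratio of CPM was at least 1.5-fold, its interval left out 1, and the gene had at least 10 UMIs over both libraries. The macrophage marker C1qa, from the most abundant cells of these tumours, was seen in 22.4% to 36.4% of gated lymphocytes, at 62.4 to 127 CPM against 4648 and 4280 CPM in macrophage-like cells. All 9 genes of the macrophage list were above 0 in every gate. Macrophage-like cells thus give a background for shares of lymphocytes with a UMI, except for Tnf, which macrophages make.

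**Figure D1:**
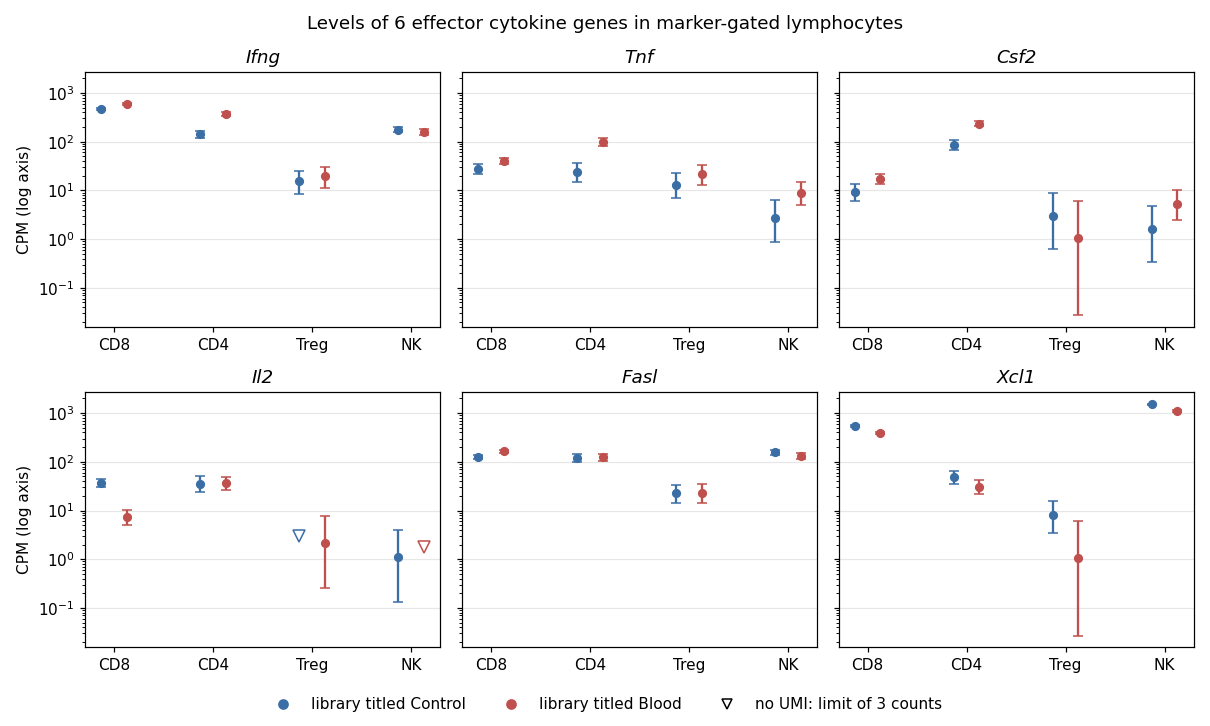
CPM of each gene (vertical log axis) in the 4 gates (horizontal axis), library titled Control in blue and titled Blood in red, with exact 95% Poisson intervals; open triangles mark the limit that 0 UMIs allow. Xcl1 is highest in NK-gated cells, Ifng in CD8-gated cells and Csf2 in CD4-gated cells. In Treg-gated cells Ifng, Csf2, Il2, Fasl and Xcl1 are low, and Tnf lies above its NK-gated level.

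The leading genes differed between the gates. Xcl1 led in NK-gated cells, Ifng and Xcl1 in CD8-gated cells, and Ifng, Csf2 and Fasl in CD4-gated cells, whereas in Treg-gated cells the highest member, Fasl, was at 22.3 and 22.5 CPM. Fasl was the most even of the 6 over the cytotoxic and helper gates, between 121 and 163.5 CPM. The order of the gates by level is given below for each gene in turn, cytokines first, then the death ligand and the chemokine.

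Ifng stood at 470.4 CPM (interval 445 to 496) in CD8-gated cells of the library titled Control and at 599 (576 to 622) in that titled Blood. In CD4-gated cells it was at 141 (117 to 168) and 378 (343 to 415) CPM. NK-gated cells had 176 (157 to 196) and 158 (140 to 178) CPM. Treg-gated cells had 15.2 and 19.3 CPM, from 15 and 18 UMIs. CD8-gated cells were thus highest and Treg-gated cells lowest in both libraries. Between CD4-gated and NK-gated cells the intervals overlapped in the library titled Control, and in that titled Blood the CD4-gated level lay above the NK-gated one. In macrophage-like cells Ifng was at 0.797 and 1.25 CPM.

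The share of CD8-gated cells with an Ifng UMI was 40.6% (36.0 to 45.4) in the library titled Control and 59.4% (55.7 to 62.9) in that titled Blood, against 0.907% and 1.29% of macrophage-like cells. Median depth did not run the same way, with 5791 and 5253 UMIs per CD8-gated cell. After every cell was thinned to 2000 UMIs, with 428 of 436 and 715 of 743 cells deep enough to enter, the shares were 25.2% (21.2 to 29.6) and 39.2% (35.6 to 42.8). Macrophage-like cells were deeper, with medians of 13472 and 12403 UMIs, so the lymphocyte shares were far above this background.

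Within the gate Ifng was very uneven. In the library titled Control 1 CD8-gated cell held 251 of the 1329 Ifng UMIs, and 8 cells held 50% of them. In the library titled Blood the highest cell held 180 of 2541 UMIs, and 30 of the 743 cells held 50%. Most positive cells carried little: the median positive cell had 2 UMIs in each library. The mean per positive cell, which the highest cells pull up, was 7.51 and 5.76 UMIs.

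Tnf was at 27.3 (21.5 to 34.1) and 39.8 (34.0 to 46.3) CPM in CD8-gated cells. CD4-gated cells had 23.8 (14.7 to 36.4) CPM in the library titled Control and 99.7 (82.5 to 120) in that titled Blood, and Treg-gated cells 13.2 and 21.5 CPM. NK-gated cells were lowest, at 2.72 and 8.91 CPM from 5 and 15 UMIs. The highest gate was CD8 in the library titled Control, where its interval overlapped that of the CD4 gate, and CD4 in that titled Blood, where it did not. Tnf was not particular to lymphocytes: macrophage-like cells had 23.9 and 28.6 CPM and neutrophil-like cells 146 and 98.9 CPM. Its share among macrophage-like cells was 21.6% and 24.1%, above the 9.86% and 11.4% of CD8-gated cells with a Tnf UMI. Macrophage-like cells were deeper, and at 2000 UMIs per cell the shares were 4.40% and 5.67% against 4.21% and 4.90%. The share in CD8-gated cells alone is thus not read as expression. Single lymphocytes with many copies, up to 13 and 23 Tnf UMIs in a CD8-gated cell and up to 3 and 21 in a CD4-gated cell, were present in both libraries.

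Csf2 was above all a transcript of CD4-gated cells, at 85.1 (66.9 to 107) and 232 (205 to 261) CPM. CD8-gated cells had 9.20 (6.01 to 13.5) and 17.4 (13.7 to 21.9) CPM. NK-gated cells had 3 and 9 UMIs and Treg-gated cells 3 and 1, at or near the limit of 3 counts. The background was very low, since only 0.0356% and 0.134% of macrophage-like cells had a Csf2 UMI. Among CD4-gated cells 9.52% and 17.6% had one, and these cells carried a mean of 4.69 and 6.97 UMIs each.

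Il2 was rare in every gate and sat in single cells. CD8-gated cells of the library titled Control had 105 Il2 UMIs, 89 of them in 1 cell, and those of the library titled Blood had 31, of which 10 were in 1 cell. CD4-gated cells had 31 and 43 UMIs, 29 and 23 of them in 1 cell. The CD8-gated cell with 89 Il2 UMIs also held 70 Ifng and 22 Xcl1 UMIs among its 8253 UMIs. The share of CD8-gated cells with an Il2 UMI was 2.06% and 1.75%, against 1.49% and 1.39% of macrophage-like cells, which were deeper. At 2000 UMIs per cell the CD8-gated shares were 1.17% (0.380 to 2.71) and 0.979% (0.394 to 2.01), from 5 and 7 cells. Macrophage-like cells at that depth had 0.128% (0.0516 to 0.264) and 0.160% (0.0731 to 0.303), below the CD8-gated shares. The share before thinning is not read as expression. Among the 165 Treg-gated cells titled Control no Il2 UMI was counted (0 UMIs, a limit of 3.05 CPM), and among those titled Blood there were 2. NK-gated cells had 2 and 0, with a limit of 1.78 CPM for the latter.

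Fasl was carried by many cells at few UMIs each. It was at 126 (113 to 140) and 163.5 (152 to 176) CPM in CD8-gated, 121 and 124 in CD4-gated, 159 and 132 in NK-gated, and 22.3 and 22.5 in Treg-gated cells. NK-gated and CD4-gated intervals overlapped in both libraries, and the Treg gate was lowest in both. A Fasl UMI was found in 44.7% and 51.8% of CD8-gated, 37.5% and 43.2% of CD4-gated, and 55.2% and 43.8% of NK-gated cells, against 0.694% and 0.955% of macrophage-like cells. The highest CD8-gated or NK-gated cell held 6 or 7 Fasl UMIs. It took 56 of 436 and 107 of 743 CD8-gated cells to reach 50% of the Fasl UMIs.

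Xcl1 had the highest level of all in NK-gated cells, at 1511 (1455 to 1568) CPM in the library titled Control and 1081 (1032 to 1132) in that titled Blood. CD8-gated cells followed with 536 (509 to 564) and 387 (369 to 406) CPM, then CD4-gated cells with 48.8 and 30.7. Treg-gated cells had 8 and 1 UMIs. The order NK, CD8, CD4 and Treg was the same in both libraries, and neighbouring intervals did not overlap. An Xcl1 UMI was found in 71.9% and 64.2% of NK-gated cells, and in 34.4% and 22.7% of CD8-gated cells. Macrophage-like cells showed 1.97% and 1.37%. Of the 2778 Xcl1 UMIs in NK-gated cells of the library titled Control, 457 came from 1 cell of 13423 UMIs; no other NK-gated cell of either library had more than 128.

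**Figure D2:**
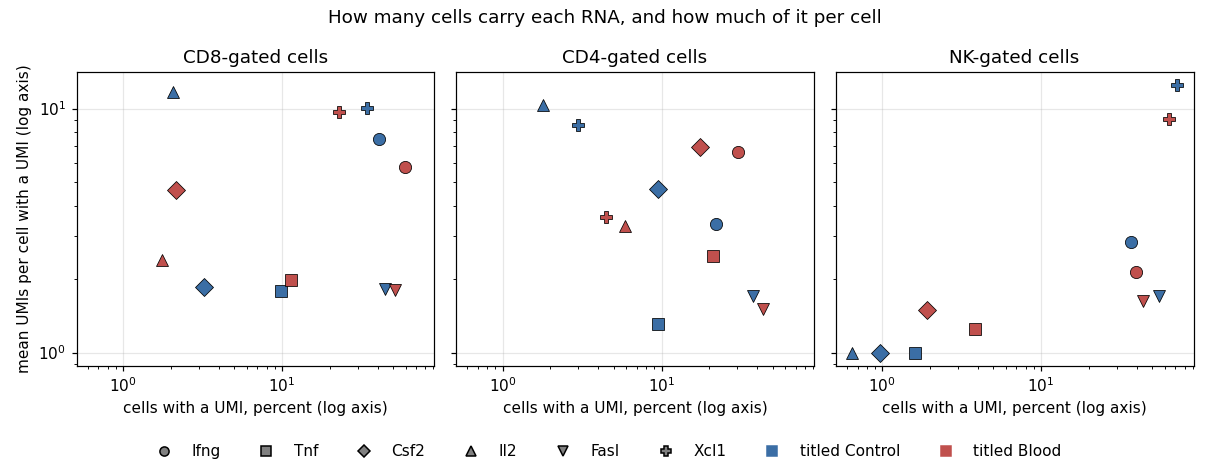
Share of cells with a UMI (horizontal log axis, percent) against mean UMIs per cell with a UMI (vertical log axis) for CD8-gated, CD4-gated and NK-gated cells; symbols mark genes and colours libraries. Fasl lies to the lower right of each panel, with many cells of few UMIs, Xcl1 in NK-gated cells to the upper right, and Il2 of the library titled Control to the upper left of the T cell panels, where single cells set its mean.

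In CD4-gated cells 3 of the 6 members were higher in the library titled Blood by the rule given above, and none was lower. Of 8977 genes with enough UMIs, 2.56% were higher by the same rule and 4.21% were lower. Tnf had the largest ratio at 4.19 (2.62 to 7.02), followed by Csf2 at 2.73 (2.10 to 3.57) and Ifng at 2.68 (2.20 to 3.30). The UMIs behind these ratios lay in few cells. In the library titled Blood 4 of 222 cells held 50% of the Ifng UMIs, and 6 held 50% for each of Tnf and Csf2. In that titled Control 5, 6 and 3 of 168 cells held 50% of Ifng, Tnf and Csf2. A single cell titled Blood held 99 Ifng, 26 Csf2 and 8 Tnf UMIs, so the 3 differences are not separate. The median log2 ratio of the 6 members, on CPM + 5, was 0.72, against -0.01 over all genes. Without the cell with the most UMIs in each library the ratios of Tnf, Csf2 and Ifng were 4.0, 3.39 and 2.53. Fasl was level, with a ratio of 1.02 (0.788 to 1.32), and Xcl1 had 0.629 with an interval that included 1.

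The share of CD4-gated cells with an Ifng UMI was 22.0% in the library titled Control and 30.2% in that titled Blood. That with a Tnf UMI was 9.52% and 21.2%, below the 21.6% and 24.1% of macrophage-like cells, which were deeper. At 2000 UMIs per cell 4.40% (3.87 to 4.98) and 5.67% (5.08 to 6.30) of macrophage-like cells had a Tnf UMI. CD4-gated cells at that depth had 5.88% (2.72 to 10.9) and 9.48% (5.89 to 14.3), not below them. The Tnf share alone is not read as expression. Thinned Ifng shares of CD4-gated cells were 13.1% and 17.5%, and Csf2 shares 7.19% and 11.8%. For each of the 3 genes the intervals of the libraries overlapped. The mean per positive cell was also higher in the library titled Blood, 2.49 against 1.31 Tnf UMIs and 6.61 against 3.35 Ifng UMIs. The median positive cell had 1 Tnf UMI in each library, and 2 against 1 Ifng UMIs. Il2 had nearly equal sums, 35.2 and 36.7 CPM, but without its top cell in each library the levels were 2.31 and 17.1 CPM, a ratio of 7.42 that met the rule; the Il2 comparison thus rests on single cells. Xcl1 too turned from a ratio of 0.629 to 1.40 without its top cells. The makeup of the gate differed: subcluster 4, led by Il13, Lgals7 and Tnfsf8, held 111 of 168 and 192 of 222 CD4-gated cells. With the subclusters at equal weight the ratios were 4.01 for Tnf, 2.11 for Csf2 and 2.73 for Ifng. A subcluster needed at least 10 cells for this weighting, and only subcluster 4 had that many CD4-gated cells in both libraries.

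The windows upstream of the genes that were higher in CD4-gated cells, with Fasl as a member that was level there, show the letters that can be set beside these values. They are the 250 bases before the RefSeq start (GRCm38.p6), 5′ to 3′ on the gene's strand. Capitals mark the core letters of NFAT sites, GGAAA, on either strand (TTTCC is its reverse complement).
Ifng chr10:118440796-118441045 (+ strand): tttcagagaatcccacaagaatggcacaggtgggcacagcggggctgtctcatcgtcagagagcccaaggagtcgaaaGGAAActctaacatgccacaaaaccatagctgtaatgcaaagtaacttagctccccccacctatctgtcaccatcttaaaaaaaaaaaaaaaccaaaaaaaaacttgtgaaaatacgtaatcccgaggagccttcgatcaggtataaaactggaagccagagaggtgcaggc
Tnf chr17:35202008-35202257 (- strand): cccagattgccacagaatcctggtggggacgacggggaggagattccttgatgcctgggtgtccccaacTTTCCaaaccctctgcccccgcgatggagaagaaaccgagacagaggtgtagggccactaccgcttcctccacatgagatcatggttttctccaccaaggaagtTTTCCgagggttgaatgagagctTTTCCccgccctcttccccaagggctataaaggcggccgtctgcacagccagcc
Csf2 chr11:54249900-54250149 (- strand): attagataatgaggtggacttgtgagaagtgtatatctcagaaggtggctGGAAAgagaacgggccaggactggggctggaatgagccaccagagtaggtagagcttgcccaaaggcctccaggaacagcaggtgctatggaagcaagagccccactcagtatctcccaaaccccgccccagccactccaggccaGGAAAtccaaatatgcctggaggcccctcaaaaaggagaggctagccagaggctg
Fasl chr1:161788496-161788745 (- strand): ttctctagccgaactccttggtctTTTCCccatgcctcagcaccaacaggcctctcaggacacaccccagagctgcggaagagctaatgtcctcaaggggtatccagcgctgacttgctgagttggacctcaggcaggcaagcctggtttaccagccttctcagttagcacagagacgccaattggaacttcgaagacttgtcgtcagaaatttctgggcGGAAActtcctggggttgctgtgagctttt
The core occurs 1 time for Ifng, 3 times for Tnf, 2 times for Csf2 and 2 times for Fasl in these windows, and it is a common string: 55.6% of 32841 promoter windows of the same length hold it, 21.4% at least 2 times and 6.39% at least 3 times. TGANTCA, the AP-1 letters, is in none of the 6 members' windows and in 6.75% of all. TATAAA is in the windows of Ifng, Tnf and Il2 and in 12.4% of all. The Csf2 window lies 232 bases further upstream than the GENCODE start of that gene. These matches describe letters and not binding.

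In GENCODE M21 on GRCm38 the genes lie at chr10:118441046-118445892 (Ifng, + strand), chr17:35199381-35202007 (Tnf, - strand), chr11:54247271-54249667 (Csf2, - strand), chr3:37120523-37125959 (Il2, - strand), chr1:161780689-161788495 (Fasl, - strand) and chr1:164931644-164935527 (Xcl1, - strand). Transcripts of Xcl1 have up to 3 exons and those of the other 5 members up to 4.

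In CD8-gated cells 1 of the 6 members was higher by the rule and 1 was lower, where 3.3% of 10589 genes were higher and 2.96% lower. Csf2 was higher in the library titled Blood with a ratio of 1.89 (1.20 to 3.09), and Il2 was lower with 0.197 (0.127 to 0.296). Both rest on few cells. The share of CD8-gated cells with a Csf2 UMI was 3.21% and 2.15%, the opposite direction to its level, and the highest cells held 7 of 26 UMIs and 21 of 74. The ratio of Il2 was 0.872 once the top cell of each library was left out, with levels of 5.68 and 4.95 CPM. The other ratios were 1.27 for Ifng (1.19 to 1.36), 1.46 for Tnf (1.11 to 1.94), 1.30 for Fasl (1.14 to 1.48) and 0.722 for Xcl1 (0.673 to 0.775), none reaching 1.5-fold. Without the top cell of each library Tnf had 1.51 and met the rule, and Ifng had 1.46. The members' median log2 ratio was 0.35, against 0.05 over all genes.

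The CD8-gated cells of the libraries also lay in different subclusters. Subcluster 1 (led by Gzmk, Cd8b1 and Wdr95) held 122 of 436 and 313 of 743, subcluster 5 (Ccl4, Ccl3 and Cd160) 72 and 228, and subcluster 6 (Dapl1, Ccr7 and Rflnb) 117 and 58. When the subclusters were given equal weight in both libraries, the Ifng ratio was 0.928, that of Fasl 0.955 and that of Csf2 0.844, below 1 where the plain ratios were above it. Xcl1 went further the same way, to 0.576. Over all cells of a subcluster, gated or not, the share with an Ifng UMI in subcluster 1 was 50.7% and 58.7%, in subcluster 5 58.8% and 65.0%, and in subcluster 6 5.29% and 12.1%. Ifng levels over all their cells were 249 and 388 CPM in subcluster 1 and 38.2 and 47.4 CPM in subcluster 6. In subclusters 7 and 9 they were 205 and 316, and 344 and 469 CPM. Subcluster 5 ran the other way, at 1664 and 1216 CPM, and 1 of its cells titled Control held 251 of 850 Ifng UMIs.

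In NK-gated cells 1 of 5 members with enough UMIs was higher by the rule and none was lower, where 3.02% of 9760 genes were higher and 2.15% lower. The member was Tnf, from 5 and 15 UMIs, with a ratio of 3.28 (1.13 to 11.5). Without the top cell of each library the ratio was 3.30 but its interval no longer left out 1. Xcl1 had a ratio of 0.716 (0.674 to 0.760), and 0.810 without the top cell of each library. Fasl had 0.830 (0.694 to 0.992) and Ifng 0.899 (0.762 to 1.06). The members' median log2 ratio was -0.15, against 0.03 over all genes.

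In Treg-gated cells 0 of 3 members with enough UMIs differed by the rule, where 3.2% of 9037 genes were higher and 2.69% lower. Ifng had a ratio of 1.27 (0.603 to 2.70), Tnf 1.63 (0.769 to 3.55) and Fasl 1.01 (0.527 to 1.92). These intervals include both equal levels and differences beyond 1.5-fold, so such differences were not detectable at this depth. Csf2, Il2 and Xcl1 had 4, 2 and 9 UMIs over both libraries and were not compared.

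**Figure D3:**
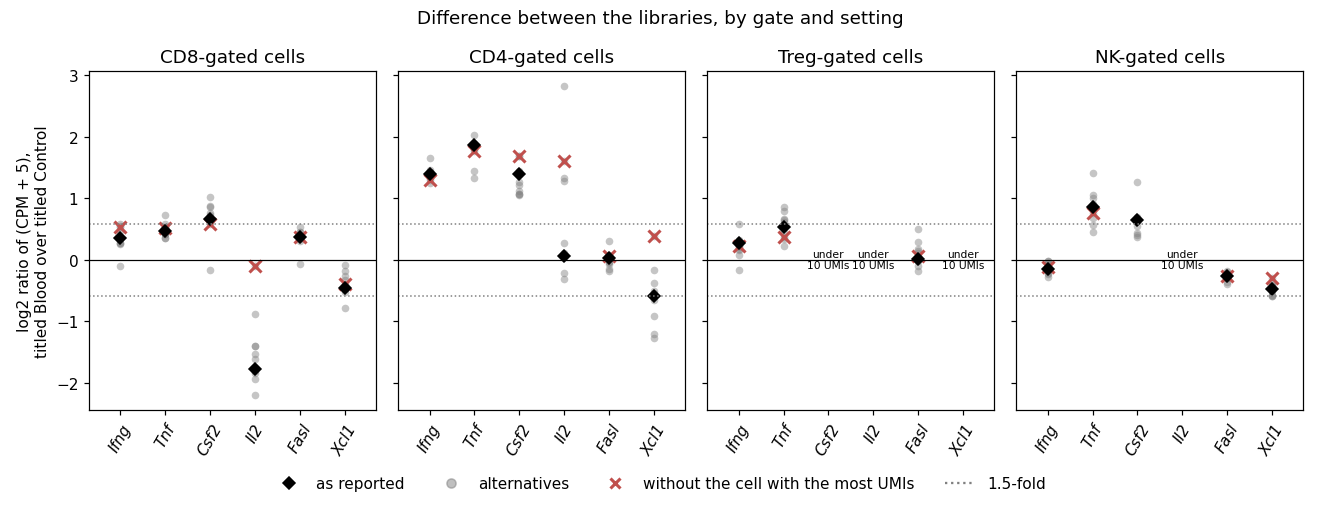
Log2 ratio of CPM + 5, titled Blood over titled Control (vertical axis), for each gene in the 4 gates; black diamonds are the values as reported, grey points the alternative settings, red crosses the values without the top cell, and dotted lines 1.5-fold. In CD4-gated cells all points of Ifng, Tnf and Csf2 lie above 1.5-fold, while Il2 moves from -1.78 to -0.10 in CD8-gated cells and from 0.05 to 1.60 in CD4-gated cells when its top cells are left out.

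The members were held by different subclusters, whose levels are over all their cells, gated or not. Subcluster 5 had the highest Ifng, at 1664 (1554 to 1780) and 1216 (1159 to 1276) CPM, and Xcl1 at 2073 and 1042 CPM. Its Il2 was 199.7 and 33.2 CPM, and 89 of the 102 Il2 UMIs in the library titled Control were those of the single cell above. Subcluster 1, which is rich in Gzmk, had Fasl at 201 and 208 CPM but Xcl1 at only 79.1 and 47.8 CPM. Subcluster 6, whose leading gene Ccr7 encodes a lymph node homing receptor, had Ifng at 38.2 and 47.4 CPM and Xcl1 at 213 and 199.5 CPM. In the library titled Blood 55 of the 101 Xcl1 UMIs of subcluster 6 came from 1 cell.

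Subcluster 4, which held most CD4-gated cells, had Csf2 at 110 (86.7 to 138) and 236 (209 to 266) CPM, beside Il13 and Il4 among its leading genes. In subcluster 5 Csf2 was at 13.7 and 49.9 CPM. Subcluster 8, led by the granzyme genes Gzmg, Gzmd and Gzmf and with most of its cells NK-gated, had Xcl1 at 2026 and 801 CPM, with 457 of the 1574 UMIs of the library titled Control from 1 cell. Granzymes C to G are near-identical copies, so their single counts are uncertain. Subcluster 0, the larger NK-gated group, had 1185 and 1111 CPM of Xcl1, whose intervals overlapped. Here Ifng was at 213 and 212 CPM.

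**Figure D4:**
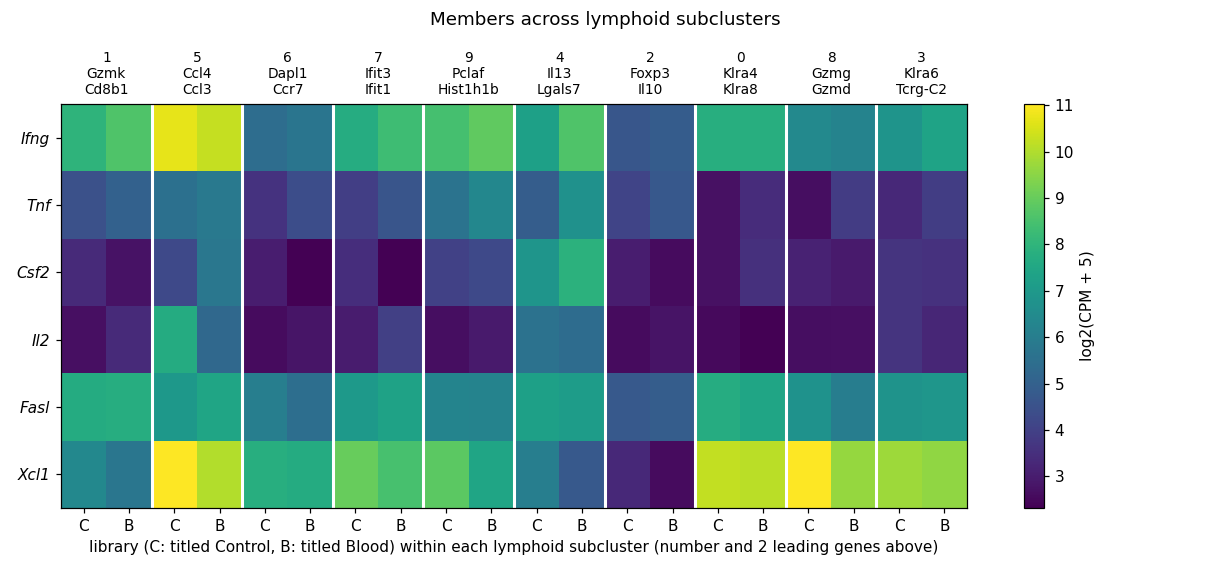
Log2(CPM + 5) of the 6 genes (rows) in the 10 lymphoid subclusters with at least 50 cells in each library (columns, library titled Control left and titled Blood right within each). Ifng is brightest in subcluster 5 and Csf2 in subcluster 4, and Xcl1 is bright in subclusters 5, 0, 8 and 3. Subcluster 2, led by Foxp3, is low for Ifng, Csf2, Il2, Fasl and Xcl1. Its Tnf, at 12.1 and 21.1 CPM, lies above that of subclusters 0, 3, 6, 7 and 8.

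Many gated cells held more than 1 member. At least 2 of the 6 RNAs were found in 42.4% and 48.5% of CD8-gated, 59.7% and 49.8% of NK-gated, 20.2% and 32.9% of CD4-gated and 2.42% and 1.04% of Treg-gated cells. At 2000 UMIs per cell the values were 16.6% and 22.8%, 29.8% and 29.0%, 14.4% and 13.3%, and 0% and 0.549%. At least 3 were found in 12.4% and 15.5% of CD8-gated cells. A single CD8-gated cell, in the library titled Control, had all 6.

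Tnf was found more often in CD8-gated cells with Ifng than in those without, 15.8% against 5.79% in the library titled Control and 13.6% against 8.28% in that titled Blood. Depth differed between these cells, with medians of 6322 against 5518 and 5514 against 4826 UMIs, and at 2000 UMIs the shares were 8.33% against 2.81% and 7.14% against 3.45%. For Xcl1 the shares with and without Ifng were 33.3% (26.4 to 40.8) against 35.1% (29.3 to 41.3) in the library titled Control and 25.9% (21.8 to 30.2) against 18.2% (14.0 to 23.0) in that titled Blood. At 2000 UMIs they were 25.9% against 20% and 18.9% against 14.9%. In CD4-gated cells of the library titled Blood 34.0% (20.9 to 49.3) of Tnf-positive and 13.1% (8.52 to 19.1) of Tnf-negative cells had a Csf2 UMI. Their median depths were 5891 and 4768 UMIs, and at 2000 UMIs per cell the shares were 45% and 8.38%. In the library titled Control, with 16 Tnf-positive cells, the shares before thinning were 18.8% (4.05 to 45.6) and 8.55% (4.63 to 14.2), with overlapping intervals. In NK-gated cells before thinning Xcl1 was about as frequent with Ifng as without, 71.9% and 71.9% in the library titled Control and 65.3% and 63.5% in that titled Blood. At 2000 UMIs per cell the shares with and without Ifng were 64.2% and 53.2% in the library titled Control and 52.8% and 53.4% in that titled Blood. Cells of 1 library are not replicates, so these shares describe the libraries.

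Other genes of the same programme were counted from fixed lists, by the same rule. Over all genes 2.56% to 3.3% were higher by it and 2.15% to 4.21% lower, as given above for each gate. Of 20 activation and signalling genes, 8 were higher in CD4-gated cells of the library titled Blood and none was lower, among them Egr3, a transcription factor induced by antigen receptor signalling, from 21.6 to 118 CPM, and Nr4a3, another such factor, from 71.5 to 170 CPM. In CD8-gated cells 5 were higher, Irf4 among them at 54.2 and 93.1 CPM, and Myc was lower, at 65.5 and 34.2 CPM. In NK-gated cells 2 of 19 measured were higher, Nfkbia, at 220 and 387 CPM, and Il2ra, with Myc at the other end at 99.0 and 68.3 CPM, and in Treg-gated cells none of 18, with Myc lower. The median log2 ratios were 0.45 (CD8), 0.51 (CD4), 0.10 (Treg) and 0.03 (NK).

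Immediate early and heat shock genes, which are also induced when tissue is digested, were counted beside these. Of 20, 8 were higher in CD4-gated, 3 in CD8-gated and 5 in NK-gated cells of the library titled Blood with none lower, and in Treg-gated cells 4 were higher and 2 lower. Fos was at 716 and 1348 CPM in CD4-gated and 729 and 1338 CPM in NK-gated cells, and Egr1 at 81.4 and 191 CPM in CD8-gated cells. With the lowest log2 ratios, Hspa1a had a ratio of 0.881 in CD8-gated and Ier3 one of 0.863 in NK-gated cells. The median log2 ratios were 0.28 (CD8), 0.46 (CD4), 0.18 (Treg) and 0.29 (NK). Their part in the higher Ifng, Tnf and Csf2 of CD4-gated cells was not tested.

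Of the other lymphocyte cytokines, 6 of 22 measured were higher and 3 lower in CD4-gated cells. The chemokine genes Ccl3 and Ccl4 had the largest ratios, from 6.81 to 314 and from 40.8 to 565 CPM, and Il4 and Il21 were also higher, while Ccl5, Il10 and Spp1 were lower. In CD8-gated cells Cd40lg and Il10 were higher, both at no more than 7.54 CPM, and Ccl1 was lower, at 183 and 68.1 CPM. In NK-gated cells Ccl1 was lower, with 21 UMIs against 0, and Flt3l had the highest log2 ratio of CPM + 5, at 0.34. Treg-gated cells had Ccl3 and Ccl4 higher and Tnfsf8 lower. Neutrophil markers were also higher in these gates of the library titled Blood: the 7 neutrophil genes summed to 18.1 and 181 CPM in CD4-gated, 15.2 and 55.1 in CD8-gated, 27.4 and 168 in Treg-gated and 19.6 and 147 in NK-gated cells. Their part in the cytokine differences was not tested.

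No target of interferon gamma was higher by the rule in the library titled Blood. Of 24 measured in each gate, 13 were lower in CD4-gated, 6 in Treg-gated, 3 in CD8-gated and 3 in NK-gated cells. In CD4-gated cells Iigp1, an interferon-induced GTPase, was at 72.6 and 7.67 CPM. Iigp1 was also the lowest by log2 ratio in CD8-gated cells, at 17.3 and 3.53 CPM, and the chemokine gene Cxcl10 in NK-gated cells, at 189 and 77.2 CPM. The targets with the highest log2 ratios there did not reach 1.5-fold: Tap1, of the peptide transporter, with 213 and 254 CPM in CD8-gated cells, and the transcription factor gene Irf1 with 109 and 141 CPM in NK-gated cells. Some of these genes are abundant in macrophages, and the macrophage list summed to 877 and 600 CPM in CD4-gated, 1045 and 608 in Treg-gated, 659 and 510 in CD8-gated and 639 and 689 in NK-gated cells. The makeup of the gates differed too. Subcluster 7, led by the interferon-induced genes Ifit3, Ifit1 and Ifit3b, held 14 of 168 and 2 of 222 CD4-gated cells. It held 54 of 436 and 72 of 743 CD8-gated cells. The part of macrophage RNA or of this subcluster in the lower targets was not tested. Median log2 ratios of the targets were -0.20 (CD8), -0.84 (CD4), -0.09 (Treg) and -0.18 (NK).

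Of the 25 lineage regulators, Il18rap, a subunit of the interleukin 18 receptor, was higher in CD8-gated cells, at 132 and 231 CPM, and in CD4-gated cells, at 121 and 205 CPM. Tcf7, a transcription factor of naive and memory T cells, was lower in both, at 169 and 87.2 and at 166 and 73.3 CPM. In all, 3 of 25 measured were higher and 2 lower in CD8-gated cells, and 1 and 3 of 23 in CD4-gated cells. In Treg-gated cells 1 and 2 of 23 were, and in NK-gated cells 1 and 1 of 25, where the higher was Prdm1 at 22.8 and 36.2 CPM. Over all genes 2.56% to 3.3% were higher and 2.15% to 4.21% lower, depending on the gate. Of the 10 genes on the list headed mRNA decay, Zfp36 was higher in CD8-gated cells, at 150 and 257 CPM, and in NK-gated cells, at 159 and 277 CPM. Zfp36 encodes a protein that destabilises cytokine mRNAs including Tnf. The genes of this list with the lowest log2 ratios were Elavl1 in CD8-gated cells, at 0.05, and Zc3h12d in NK-gated cells, at -0.46, neither past the rule. Hnrnpll was higher in CD4-gated cells, and no gene of this list was lower in any gate.

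Receptors of the members were spread over other cells of the tumour. Ifngr1, the ligand-binding chain for interferon gamma, was at 654 to 1214 CPM in the 4 gates and at 195 and 189 CPM in macrophage-like cells. Its partner Ifngr2 ran the other way, at 3.26 to 18.2 CPM in the gates and 130 and 131 CPM in macrophage-like cells. Il2ra, the high-affinity interleukin 2 receptor chain, was highest in Treg-gated cells, at 1063 and 1417 CPM, where Il2 itself had 0 and 2 UMIs. Il2rb, the shared signalling chain, was highest in NK-gated cells, at 1355 and 1270 CPM.

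Receptor chains for GM-CSF lay in myeloid cells. Csf2rb was at 577 and 597 CPM in neutrophil-like and 134 and 157 CPM in macrophage-like cells, and at no more than 17.2 CPM in any gate. The tumour necrosis factor receptor gene Tnfrsf1b was highest in neutrophil-like cells, at 370 and 375 CPM, and in Treg-gated cells, at 312 and 357 CPM. Fas was highest in neutrophil-like cells, at 177 and 138 CPM. Xcr1, the receptor of the Xcl1 chemokine, was at 54.2 and 27.3 CPM in cluster 15, which had no name by the marker rule but carried 31.3% mean detection of the conventional dendritic cell list, itself including Xcr1. Among the classes compared, no other had more than 1.78 CPM of Xcr1. Between the libraries, Il2ra was higher in CD4-gated and NK-gated cells and Tnfrsf1a lower in CD4-gated and Csf2rb lower in NK-gated cells, and no receptor differed by the rule in the CD8 or Treg gate. By log2 ratio of CPM + 5, receptors with at least 20 UMIs ran from -0.41 for Ifngr2 to 0.36 for Il2ra in CD8-gated cells.

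**Figure D5:**
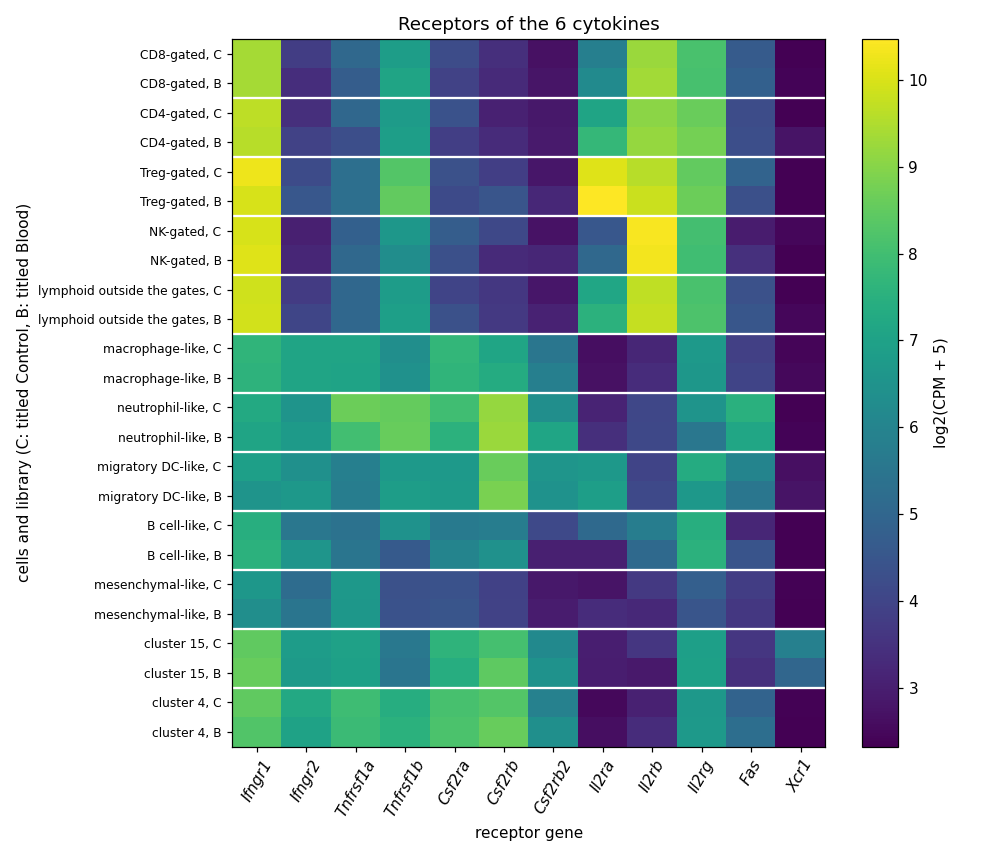
Log2(CPM + 5) of 12 receptor genes (columns) in gated lymphocytes and other cell classes (rows, each as library titled Control, C, then titled Blood, B). Ifngr1 and Il2rb are bright in the lymphocyte rows, Il2ra in the Treg-gated rows, Csf2rb in the neutrophil-like and migratory DC-like rows, and Xcr1 in cluster 15.

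The genes whose levels followed each member most closely over 20 points (10 subclusters in each of 2 libraries) were found among 4402 genes by Pearson's r of log2(CPM + 5). They were Ccdc50 (r = 0.93), Il18rap (0.89) and Idh3a (0.88) for Ifng, and Egr3 (0.88), Tnfsf9 (0.86) and Pdcd1 (0.84) for Tnf. For Csf2 they were Ece1 (0.88), Il13 (0.87) and Ccl1 (0.84), and for Il2 Ccl1 (0.86), Gch1 (0.86) and Gpm6b (0.84). Fasl was followed by Lax1 (0.88), Sept6 (0.87) and Klrk1 (0.86), and Xcl1 by Nedd4 (0.85), Nop10 (0.84) and Eomes (0.82). The highest Il2 points rest on single cells. In the library titled Control 1 cell held 89 of 102 Il2 UMIs in subcluster 5, and 1 held 29 of 30 in subcluster 4. In that titled Blood 1 cell held 23 of 43 in subcluster 4. Points of 1 library share its preparation and depth, and these correlations are descriptions of these subclusters only.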

How the data were processed

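Gene by barcode tables of raw UMI counts were deposited for 2 libraries. Per the submitters' processing notes the authors used Cell Ranger 3.1.0 and mm10, and per the labels' protocols tumours were digested with collagenase and DNase, and erythrocytes were lysed before 10x 3' v3 libraries were made. Neither barcode calling settings nor an annotation release is stated (not given in the sources used here). Cells with at least 500 UMIs, at least 300 genes and at most 20% mitochondrial UMIs were kept, and Scrublet doublets removed per library. Clusters (scanpy 1.11.5, 2000 variable genes, 30 components, 15 neighbours, Leiden resolution 1) were made without the 6 members. Clusters with a mean detection of at least 50% over the T or NK list were lymphoid, and other classes were named at 60% with a margin of 20 points; these thresholds were set after seeing the data. Counts were summed per gate and library. Intervals are exact Poisson (CPM), Clopper-Pearson (shares) and conditional binomial (ratios), and UMIs are taken as independent molecules. Limits for 0 are 3 counts. The named genes were all 6 members in every class, the 12 receptors, the 3 most correlated genes per member, and list genes with the highest and the lowest log2 ratio of CPM + 5 in CD8-gated and NK-gated cells among those with at least 20 UMIs; list genes named for CD4-gated and Treg-gated cells were picked once their values were known. The members and lists were chosen with earlier results of these data known. The interval rule was tested on simulated data. Values of 1 list gene are not reported here.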

Additional observations from a re-analysis of the deposited data

Results flagged for a closer look

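Lymphoid cells outside the gates, 473 in the library titled Control and 423 in that titled Blood, also carried effector transcripts, above the limit of 3 counts. Ifng was at 123.2 and 259.3 CPM, Fasl at 99.0 and 97.5 CPM, and Xcl1 at 790.5 and 590.0 CPM. Most of these cells had CD3 without Cd4, CD8 or Foxp3. They are in no comparison of gates, though the subcluster levels include them. Subcluster 3, led by Klra6 and Tcrg-C2 and with 222 and 178 cells, had Xcl1 at 864 and 759 CPM.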

How the results depend on the processing

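No paired analysis was possible because each group has 1 library. The count of members that differed stayed within 1.5 times its reported value in 41 of 52 alternatives. In CD8-gated cells it went from 2 to 4 with classes taken from subclusters. In Treg-gated cells it went from 0 to 1 with doublets kept, with CPM averaged over cells, and with no minimum of UMIs. In NK-gated cells it went from 1 to 2 with classes from subclusters, with the gate over all kept cells, with subclusters at equal weight and with CPM averaged over cells. It went to 0 there with doublets kept, with cells thinned to 2000 UMIs and without the cell with the most UMIs. For equal weight and for mean CPM the fold alone decided. In CD4-gated cells the count stayed within 1.5 times of 3 in every alternative run. Of the log2 ratios 230 of 256 alternatives moved by less than the counting interval, 25 by more. Among ratios that met the rule, 1 changed sign: Csf2 in CD8-gated cells, at -0.16 with subclusters at equal weight. Ratios that had not met it changed sign in several alternatives, as given above for Ifng, Fasl and Xcl1. Leaving out barcodes listed in both libraries and leaving out the top cell were chosen after seeing the data. Members with few UMIs, among them Il2, Csf2 in NK-gated cells and all 6 in Treg-gated cells, are limited by depth.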
